A study of Mus musculus with 4 samples.

Results

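Genomic imprinting leaves a gene active from the copy of 1 parent. The 44 mouse genes described here are well-known imprinted genes, among them the growth factor gene Igf2 and its noncoding neighbour H19, and they were taken from the tables by gene name. Of the 44, 42 had a row in at least 1 of the authors' 2 deposited tables, 40 had a row in both, and 39 of those passed a filter on low counts, out of 16371 genes tested of 20385 in both tables. The RNA is that of fetal cerebral cortex, dissected at embryonic day 16 (E16) from C57BL/6 mice, in 2 libraries of Cd93 knockout (KO 5 and KO 6) and 2 of wild type (WT 1 and WT 4). Cd93 encodes a cell-surface receptor of the C-type lectin group, known best in endothelial cells. Table A holds KO 6 with WT 1, and table B holds KO 5 with WT 4. The labels do not say whether each library came from its own embryo, whether embryos were pooled, or which part of Cd93 was deleted. The p-values therefore measure the spread between these libraries, which may be technical.

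Imprinted genes lie in clusters, and within a cluster an imprinting control region carries DNA methylation from 1 parent only. Long noncoding RNAs such as Airn and Kcnq1ot1 silence neighbours on the paternal chromosome, and an insulator bound by CTCF directs shared enhancers to Igf2 on one chromosome and to H19 on the other. In fetal tissue many genes expressed from the paternal copy favour growth, and several expressed from the maternal copy restrain it. Since the strain is inbred and the tables hold counts per gene, the copies of the parents cannot be told apart here. The parental class of each gene is textbook background: 18 of the 44 genes were placed in the maternal class and 23 in the paternal class. Grb10, Gnas and Ddc, whose active copy depends on tissue or transcript, are in neither. Some genes placed in a class also vary with tissue, such as Igf2r and Igf2, described below. The class of a gene may therefore not hold in cortex, and this was not tested.

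H19 and Igf2 had the lowest fitted log2 fold changes of the 39 genes, and their transcripts also carry miRNAs. The mature sequences, credited to RefSeq on GRCm38.p6, are shown because they are processed from these transcripts, with the seed (bases 2 to 8) in capitals. Those of H19 lie at chr7:142577112-142577133 and chr7:142577078-142577099, and those of Igf2 at chr7:142654968-142654989 and chr7:142654932-142654952, all on the minus strand. No pair of the 4 shares a seed, and the miRNAs themselves were not analysed here.
mmu-miR-675-5p: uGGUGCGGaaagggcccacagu
mmu-miR-675-3p: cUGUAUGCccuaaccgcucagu
mmu-miR-483-5p: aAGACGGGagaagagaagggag
mmu-miR-483-3p: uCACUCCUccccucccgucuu

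Promoter windows, from 250 bases before to 50 after a RefSeq start, were found for 37 of the 44 genes, in 55 windows. H19, Cdkn1c, Rtl1, Peg10, Sgce, Nespas and Impact had no match. The windows below belong to 3 of the 4 genes with a log2 fold change of -1 or lower. CG, the dinucleotide that carries methylation, is in capitals on the printed strand. They are chr7:142657447-142657746 on the minus strand for Igf2, the window nearest its coding exons of 4, chr12:109452573-109452872 on the plus strand for Dlk1, and chr7:62376729-62377028 on the plus strand for Magel2 (GRCm38.p6).
Igf2 promoter: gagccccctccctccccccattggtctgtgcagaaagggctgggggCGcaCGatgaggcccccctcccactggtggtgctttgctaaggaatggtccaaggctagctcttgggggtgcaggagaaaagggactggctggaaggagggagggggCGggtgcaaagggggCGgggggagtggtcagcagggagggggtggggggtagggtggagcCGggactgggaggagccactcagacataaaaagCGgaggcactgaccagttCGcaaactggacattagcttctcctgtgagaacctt
Dlk1 promoter: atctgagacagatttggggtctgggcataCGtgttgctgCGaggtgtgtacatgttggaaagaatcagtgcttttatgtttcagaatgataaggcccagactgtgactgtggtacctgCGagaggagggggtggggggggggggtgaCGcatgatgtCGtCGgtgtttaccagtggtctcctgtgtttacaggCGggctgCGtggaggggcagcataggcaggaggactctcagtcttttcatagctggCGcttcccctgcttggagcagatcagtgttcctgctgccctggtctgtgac
Magel2 promoter: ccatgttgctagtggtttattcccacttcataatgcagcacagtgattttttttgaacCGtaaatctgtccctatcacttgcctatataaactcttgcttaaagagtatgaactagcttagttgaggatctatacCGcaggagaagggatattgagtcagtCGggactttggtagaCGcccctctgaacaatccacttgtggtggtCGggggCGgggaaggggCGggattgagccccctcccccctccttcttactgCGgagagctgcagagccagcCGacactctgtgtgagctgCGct

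These windows hold 7, 9 and 10 CG, where the median was 13 over the 55 windows of imprinted genes and 7 over 32851 windows of all genes. TGCCGC, the word bound by the imprint keeper ZFP57 when methylated, was searched on both strands and was in none of the 3, though in another window of Igf2. It stood in 14 of the 55 windows (25.45%), in 5 of 21 windows of the maternal class and 8 of 26 of the paternal class, against 11.6% of all windows. Among the windows with it are those of Mest, Nnat, Mcts2, Plagl1 and Zim1. Windows can overlap, so they are not independent, and Snrpn and Snurf share 1 window that is counted for each. With repeats removed, TGCCGC stood in 13 of 54 windows (24.1%), against 11.6% of all. The word itself holds a CG, and the median CG was higher in windows of imprinted genes. Other words searched in the same windows were also more frequent there. TATAAA stood in 11 of the 55 windows (20%), against 13.6% of all windows. GGGGCCCC stood in 3 of the 55 (5.46%), against 1.08% of all. The higher share is thus not particular to TGCCGC. Shares at equal CG content were not compared.

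The listed counts summed to 17555476 in KO 5, 16318317 in KO 6, 17586157 in WT 1 and 17158867 in WT 4. In these depths 1 count was 0.0569 to 0.0613 CPM (counts scaled to library size, here with the TMM factors of edgeR). Cd93 itself was at 6.33 and 6.10 CPM in KO 5 and KO 6, against 38.2 and 24.0 CPM in WT 1 and WT 4, lower in both KO libraries but not at 0. WT 1 stood apart from the other 3 libraries. Summed over 19 meningeal and fibroblast markers it had 800.3 CPM, against 206 in KO 5, 234 in KO 6 and 249 in WT 4. Some of the results below, not all that it moves, are given with and without it. Cortical markers such as Neurod6 were high in every library, at 1526 and 1665 CPM in KO 5 and KO 6 and 1421 and 1541 CPM in WT 1 and WT 4.

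Together the 42 genes took 0.431% and 0.474% of the listed counts in KO 5 and KO 6, and 0.596% and 0.414% in WT 1 and WT 4. Nnat and Meg3 alone took 0.239% and 0.267% in KO 5 and KO 6, and 0.332% and 0.211% in WT 1 and WT 4. Per kilobase of exon, the mean level over all 4 libraries was highest for Nnat, at 926 CPM per kb, rank 18 of 20344 genes. Nnat encodes neuronatin, a small membrane protein of developing neurons. Next were Ndn, the gene of the MAGE protein necdin, at 64.7 CPM per kb, the noncoding RNA Meg3 at 51.1, Blcap at 27.8 and the noncoding RNA Rian at 23.65. At the low end stood Nespas at 0.199, Ascl2 at 0.136 and Ddc at 0.121 CPM per kb. Of the 39 genes tested, 36 averaged at least 1 CPM.

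**Figure D1:**
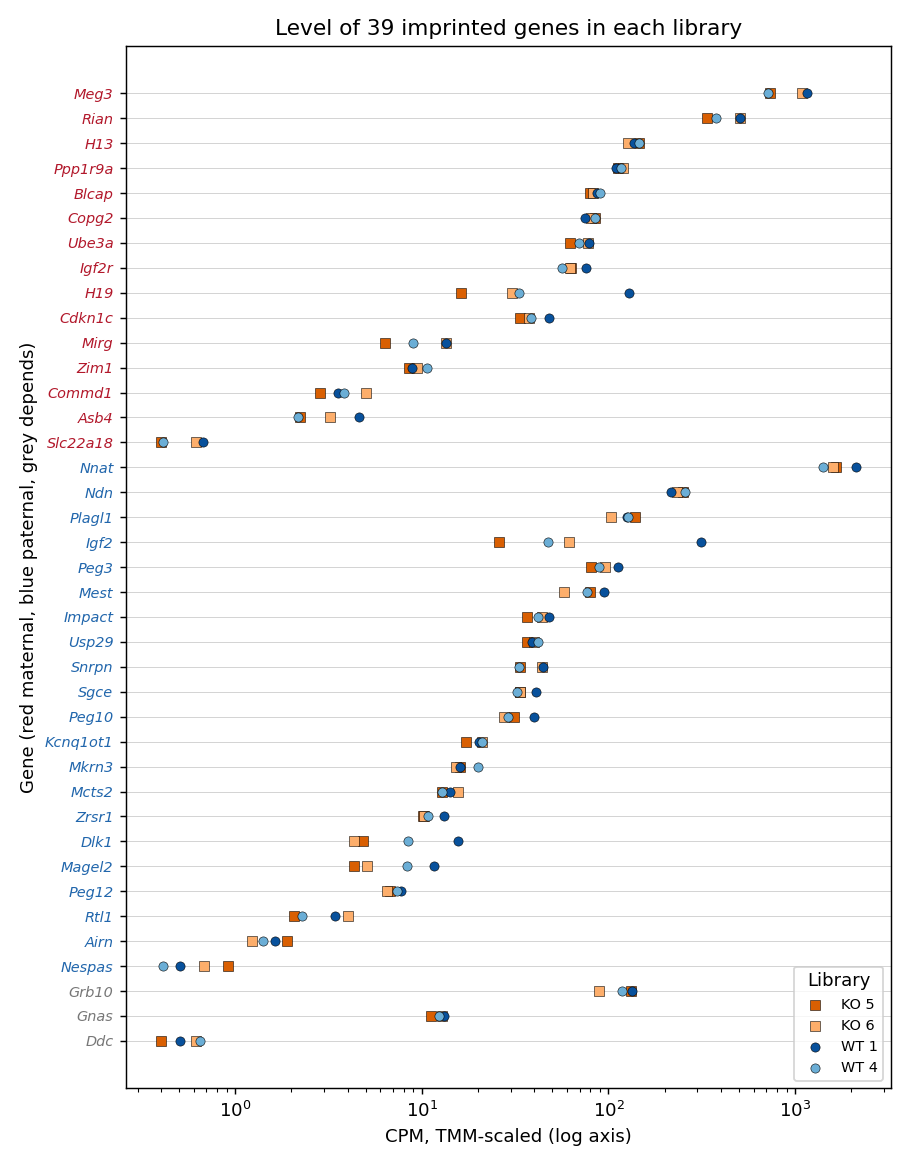
CPM (log axis, TMM-scaled) of the 39 imprinted genes that passed the filter, by parental class and then by mean level, with a square for each KO library and a circle for each WT library. Nnat lies highest, between 1409 and 2115 CPM, and Igf2 and H19 show WT 1 far to the right of the other libraries.

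None of the 39 imprinted genes passed the main test between KO and WT, and 2 and 4 of them passed in 2 of 9 alternative fits. With p-values of edgeR's quasi-likelihood test adjusted over all genes by Benjamini and Hochberg, 0 of 39 were under 0.05, against 0.0122% of all genes (2 of 16371, both lower in KO). DESeq2 called 0 of the 39 and 0.0489% of all genes, and limma-voom 0 and 0.0122%. In edgeR 0 of the 39 were also called with size factors of the DESeq2 type (0.0122% of all genes), with no filter (0.00981%), without KO 5 (0.0291%), without KO 6 (0.0466%) and without WT 1 (0.259%). Blocking edgeR on table A or B gave 2 calls, H19 and Igf2 (0.177% of all genes), and without WT 4 it called 4, Igf2, H19, Dlk1 and Magel2 (1.82%). The main test called few genes of any kind, and Cd93 itself, at -2.32 (SE 0.25), had an adjusted p of 0.2105 in it, against 3.91e-12 in DESeq2 and 0.000971 in the blocked edgeR fit. Without adjustment 4 of the 39 had a p under 0.05, namely Dlk1, Magel2, H19 and Igf2, against 1.94% of all genes. The same 4 were the ones with a log2 fold change of -1 or lower, against 1.85% of all genes. Another 34 lay within 0.4 of 0 on the log2 scale, and Nespas, with few counts, was at 0.79.

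The balance of directions was to the lower side, in both classes. The log2 fold change, KO over WT, was below 0 in 31 of 39 genes with a median of -0.12, where 51.0% of all genes were below 0 and their median was -0.003. In the maternal class 12 of 15 genes were below 0 with a median of -0.09, from -1.80 for H19 to 0.09 for Commd1. In the paternal class 16 of 21 were below 0 with a median of -0.13, from -2.05 for Igf2 to 0.79 for Nespas. These are counts of genes that share domains and enhancers, with no test, and the ranges of the classes overlap almost fully. WT 1 was the highest library in 22 of the 39 genes (56.4%), against 27.9% of all genes. Without WT 1, 7 of 15 maternal-class genes were below 0 with a median of 0.001, and 13 of 21 paternal-class genes with a median of -0.08.

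Read by library, both KO libraries lay below both WT libraries in 8 of the 39 genes, against 11.9% of all genes (20.5% of the imprinted ones). These were H19, Cdkn1c and Blcap of the maternal class and Dlk1, Magel2, Mkrn3, Peg12 and Zrsr1 of the paternal class. Nespas alone of the 39 lay above in both, against 11.5% of all genes. KO was below WT within both tables in 16 of 39 (41.0%), against 22.9% of all genes, and above in both in 2, against 22.3%. Summed over a class, the libraries overlapped. The maternal class summed to 1687 CPM in KO 5 and 2240 in KO 6, against 2440 in WT 1 and 1758 in WT 4. For the paternal class the sums were 2483 CPM in KO 5 and 2417 in KO 6, against 3297 in WT 1 and 2276 in WT 4.

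**Figure D2:**
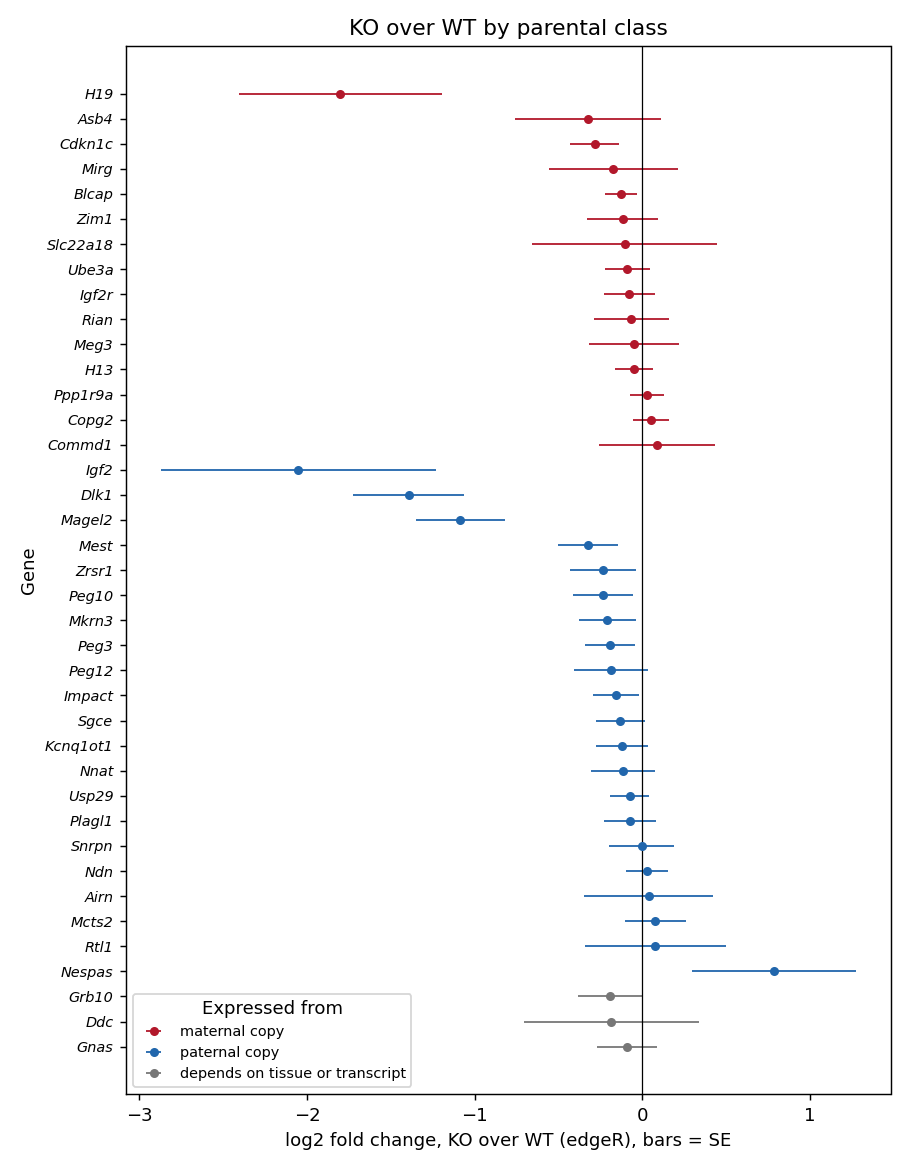
Log2 fold change, KO over WT, of 39 imprinted genes with its SE, from edgeR on 2 libraries a genotype, coloured by the parental copy they are expressed from. H19 at -1.80, Igf2 at -2.05, Dlk1 at -1.39 and Magel2 at -1.09 lie apart from the rest, in both classes, and none of them passed the test in this fit, which has no block for the deposited table.

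Igf2 (ENSMUSG00000048583, chromosome 7, 142650766 to 142666816, minus strand) encodes the insulin-like growth factor of the fetus, expressed from the paternal copy in most tissues and from both copies in leptomeninges and choroid plexus. It had 452 counts in KO 5 and 1000 in KO 6, against 5585 in WT 1 and 812 in WT 4. WT 1 was far above the rest, and KO 6 was above WT 4, so the genotypes overlapped. The level was 43.7 ± 25.3 CPM in KO and 181 ± 188 CPM in WT (SD, n = 2 each). On the log2 scale KO over WT was -2.05 (SE 0.82), at an adjusted p of 0.9999 and an unadjusted p of 0.0432 in edgeR. Within table A the log2 ratio was -2.35 and within table B -0.88.

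H19 (ENSMUSG00000000031, chromosome 7, 142575529 to 142578143, minus strand) is the maternally expressed noncoding RNA downstream of Igf2. Its counts were 284 in KO 5 and 496 in KO 6, against 2296 in WT 1 and 568 in WT 4. The KO libraries were both below the WT libraries, but KO 6 and WT 4 were close, at 30.5 and 33.3 CPM. The level was 23.4 ± 10.1 CPM in KO and 81.2 ± 67.7 CPM in WT (SD, n = 2 each). The difference was -1.80 on the log2 scale, with SE 0.61 and an adjusted p of 0.9999 in edgeR. The log2 ratios were -2.08 within table A and -1.04 within table B.

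The pair moved together across libraries although they are active on opposite parental chromosomes. Igf2 and H19 differed between the WT libraries by 2.72 and 1.95 (log2, WT 1 over WT 4), and between the KO libraries by 1.25 and 0.91 (log2, KO 6 over KO 5). The counts of Igf2 per count of H19 were 1.59 in KO 5 and 2.02 in KO 6, against 2.43 in WT 1 and 1.43 in WT 4. This ratio overlapped between genotypes and varied far less than either gene. When table A or B entered the edgeR fit as a block, both were called lower in KO. Igf2 was then at -1.65 with an adjusted p of 0.0343 and H19 at -1.59 with 0.00819, where 0.177% of all genes were called, 0.165% as lower. Without WT 1 the log2 fold changes were -0.13 and -0.51 and neither was called, and without WT 4 they were -2.84 and -2.46, with adjusted p values of 4.85e-09 and 3.04e-09, where that fit called 1.82% of all genes, 1.52% as lower. Over the alternative fits the adjusted p ran from 4.85e-09 to 1 for Igf2 and from 3.04e-09 to 1 for H19.

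Markers of cell types also differed. WT 1 had the highest sum in the lists of meninges, ganglionic eminence, choroid plexus, endothelium, microglia, pericytes and radial glia. Radial glia sums were 1338 and 1235 CPM in KO 5 and KO 6, and 1449 and 1269 CPM in WT 1 and WT 4. For red cells, diencephalon and cortical neurons WT 1 was not the highest. Of 18 tested meningeal and fibroblast markers, 17 had a log2 fold change below 0, with a median of -2.29, and their summed levels were 206 and 234 CPM in KO and 800.3 and 249 CPM in WT. Without WT 1, 9 of 18 were below 0 and the median was -0.008. Col1a1, a fibrillar collagen gene, was at 8.95 and 8.62 CPM in KO 5 and KO 6, against 81.7 and 22.5 CPM in WT 1 and WT 4. All 19 markers of that list had a row in both tables. Choroid plexus markers summed to 15.7 and 31.3 CPM in KO 5 and KO 6 and to 47.0 and 12.9 CPM in WT 1 and WT 4, with Kl, Prlr and Kcnj13 missing from at least 1 table. Of its 7 tested markers 3 were below 0 and 4 above, with a median of 0.25, and without WT 1 the median was 0.50. The endothelial list had 11 of 11 tested markers below 0 (sums 196 and 185 CPM in KO, 311 and 192 CPM in WT), the microglial and macrophage list 10 of 10, and the ganglionic eminence list 12 of 12 (322 and 481 CPM in KO, 899 and 470.0 CPM in WT). Without WT 1 these counts were 5 of 11, 5 of 10 and 12 of 12, with medians of 0.006, -0.05 and -0.59. With the table as a block, edgeR called 6 of 18 meningeal and 9 of 12 ganglionic eminence markers, against 0.177% of all genes. That fit called 0 of the tested choroid plexus, endothelial and microglial markers. The part of these cells in the difference of Igf2 and H19 was not tested. In bulk tissue, fewer cells of a type and less RNA per cell cannot be told apart.

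Other annotated genes overlap the pair. In GENCODE release M21, 64.55% of the exon bases of Igf2 are shared with another gene model, mostly the same-strand readthrough model Gm49394, and 9.15% of those of H19. Igf2os, a noncoding RNA on the strand opposite Igf2, had 2 and 5 counts in KO 5 and KO 6 and 41 and 6 counts in WT 1 and WT 4. Whether counting used strand is not given in the sources used here, so reads of Igf2 and Igf2os cannot be told apart where they overlap.

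**Figure D3:**
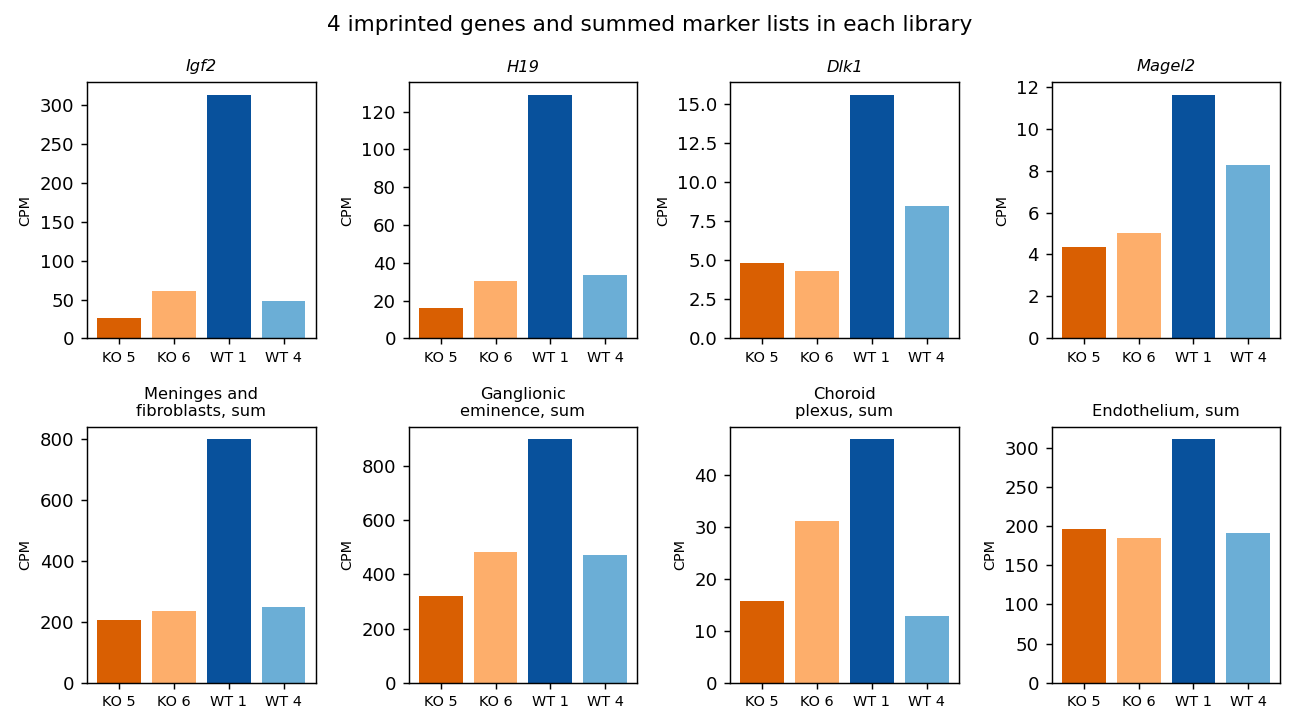
CPM in each library (bars from 0, KO libraries left of WT libraries) of Igf2, H19, Dlk1 and Magel2, above the summed CPM of 4 marker lists. WT 1 is the highest bar in all 8 panels. For H19, Dlk1, Magel2 and the meningeal sum WT 4 also stands above both KO libraries.

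Dlk1 and Magel2 were lower in each KO library than in either WT library. Dlk1 (ENSMUSG00000040856, chromosome 12, 109452823 to 109463336, plus strand) encodes a membrane protein related to Notch ligands, expressed from the paternal copy. It had 85 counts in KO 5 and 70 in KO 6, against 278 in WT 1 and 144 in WT 4. The genotypes did not overlap. The level was 4.58 ± 0.380 CPM in KO and 12.04 ± 5.07 CPM in WT (SD, n = 2 each). That is -1.39 on the log2 scale (SE 0.33), at an adjusted p of 0.9999 and an unadjusted p of 0.00461 in edgeR. Table A gave -1.83, table B gave -0.79, and the log2 ratio was -0.95 for KO 6 against WT 4.

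Magel2 (ENSMUSG00000056972, chromosome 7, 62377010 to 62381640, plus strand) encodes a MAGE protein that works with ubiquitin ligases in endosomal sorting, and its human counterpart lies in the Prader-Willi region. It had 76 counts in KO 5 and 82 in KO 6, against 207 in WT 1 and 141 in WT 4. Again the genotypes did not overlap, and the KO libraries were close to each other. The level was 4.69 ± 0.506 CPM in KO and 9.95 ± 2.38 CPM in WT (SD, n = 2 each), or -1.09 on the log2 scale with SE 0.27. In edgeR the adjusted p was 0.9999 and the unadjusted p 0.00532. Its log2 ratios, -1.19 within table A against -0.91 within table B, had the narrowest gap between the tables among the 4 low genes.

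Neither gene was called with the table as a block, at adjusted p values of 0.174 for Dlk1 and 0.236 for Magel2. Without WT 4 edgeR called both, at -1.76 with 0.000111 and -1.305 with 0.00873. Without WT 1 the log2 fold changes were -0.88 and -0.82, and neither was called. Over the alternative fits the adjusted p ran from 0.000111 to 1 for Dlk1 and from 0.00873 to 1 for Magel2. Of the ganglionic eminence markers, 7 of 12 had both KO libraries below both WT libraries, against 11.9% of all genes. Their summed level, however, was higher in KO 6 than in WT 4. A diencephalic list, which bears on the hypothalamus where Magel2 is known to be active, had 5 of 10 markers in both tables, and Sim1, Otp, Nr5a1, Hcrt and Avp were missing from at least 1. It summed to 27.5 and 22.9 CPM in KO 5 and KO 6, against 15.1 and 25.35 CPM in WT 1 and WT 4. Lhx9, a diencephalic transcription factor gene, made most of that sum in KO 5, KO 6 and WT 4. It was at 20.1 and 15.5 CPM in KO 5 and KO 6, against 6.295 and 17.7 CPM in WT 1 and WT 4. In WT 1 Tcf7l2, another marker of the list, was higher, at 7.31 CPM. Pomc, a hypothalamic neuropeptide gene, had 0.741 and 0.800 CPM in KO 5 and KO 6, against 1.29 and 1.58 CPM in WT 1 and WT 4. Pomc had few counts, 13 and 13 in KO 5 and KO 6, against 23 and 27 in WT 1 and WT 4. The log2 fold changes of the 3 tested markers were -0.89 for Pomc (SE 0.40), -0.06 for Tcf7l2 (SE 0.25) and 0.57 for Lhx9 (SE 0.44). Both KO libraries were below both WT libraries for Pomc, and the genotypes overlapped for Tcf7l2 and Lhx9. The part of either tissue was not tested.

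**Figure D4:**
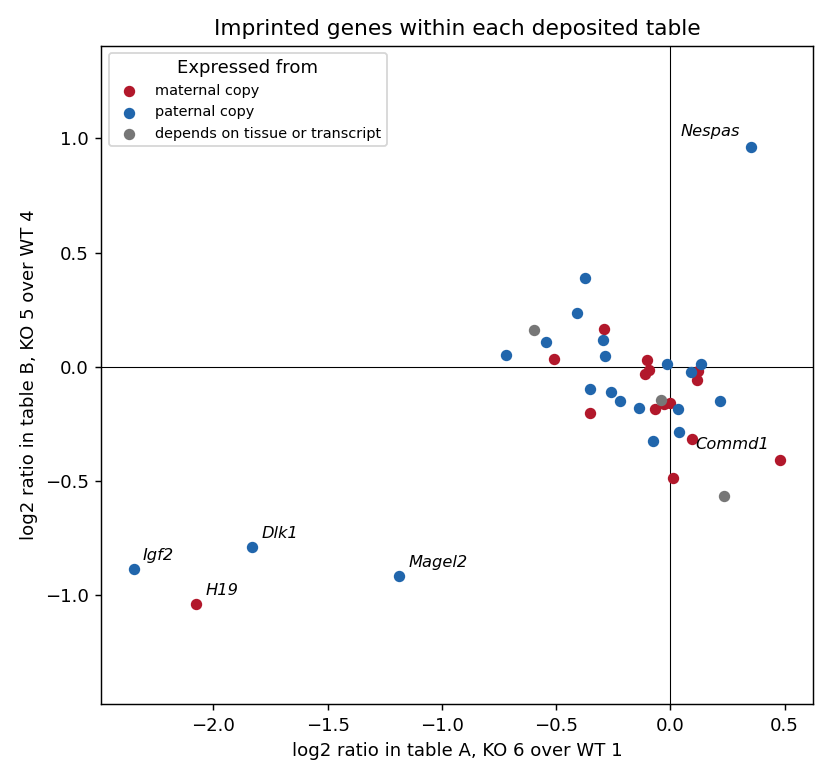
Log2 ratio of KO to WT within table A (KO 6 over WT 1, horizontal) and within table B (KO 5 over WT 4, vertical) for 39 imprinted genes, 1 point a gene. Igf2, H19, Dlk1 and Magel2 lie at the lower left, at -0.79 or lower on both axes, and of the other genes Nespas alone lies well above 0 on both axes.

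The neighbours of Dlk1 on chromosome 12 were ordered by table and not by genotype. Meg3, Rian and Mirg are noncoding RNAs from the maternal chromosome, and between the start of Meg3 and the end of Mirg RefSeq lists 60 miRNA genes. Meg3 was at 733 CPM in KO 5 and 1084 in KO 6, against 1163 in WT 1 and 719 in WT 4. Rian was at 338 CPM in KO 5 and 506 in KO 6, against 506 in WT 1 and 376 in WT 4. In both, the libraries of table A were high and those of table B low, whatever the genotype. Mirg followed with 6.33 and 13.55 CPM in KO 5 and KO 6, and 13.4 and 8.92 CPM in WT 1 and WT 4. Rtl1, the paternally expressed retrotransposon-derived gene in the same stretch, had 2.05 and 4.002 CPM in KO 5 and KO 6, against 3.43 and 2.29 CPM in WT 1 and WT 4. Its reads may include those of maternal antisense transcripts, since 8.12% of its exon bases face genes on the other strand.

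Between genotypes these 4 genes had log2 fold changes of -0.05 for Meg3 (SE 0.27), -0.07 for Rian (SE 0.22), -0.17 for Mirg (SE 0.39) and 0.08 for Rtl1 (SE 0.42). Table A over table B was compared after these values had been seen, as the table term of the blocked edgeR fit. Meg3 was higher in table A by 0.63 (log2) with an adjusted p of 0.00823, and Rian by 0.50 with 0.0251. Mirg, at 0.84 with 0.0946, and Rtl1, at 0.77 with 0.380, did not pass. That term called 1.62% of all genes, and Igf2 and H19 among them at 2.02 and 1.47. Dlk1, at 0.41 with 0.617, was not called. The counts of Meg3 per count of Dlk1 were 151 in KO 5 and 252 in KO 6, against 74.5 in WT 1 and 85.1 in WT 4. What a deposited table shares beyond the file, such as a run or a day, is not given. Of the 39 genes, 14 (35.9%) had both table A libraries above both table B libraries, against 23.0% of all genes.

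**Figure D5:**
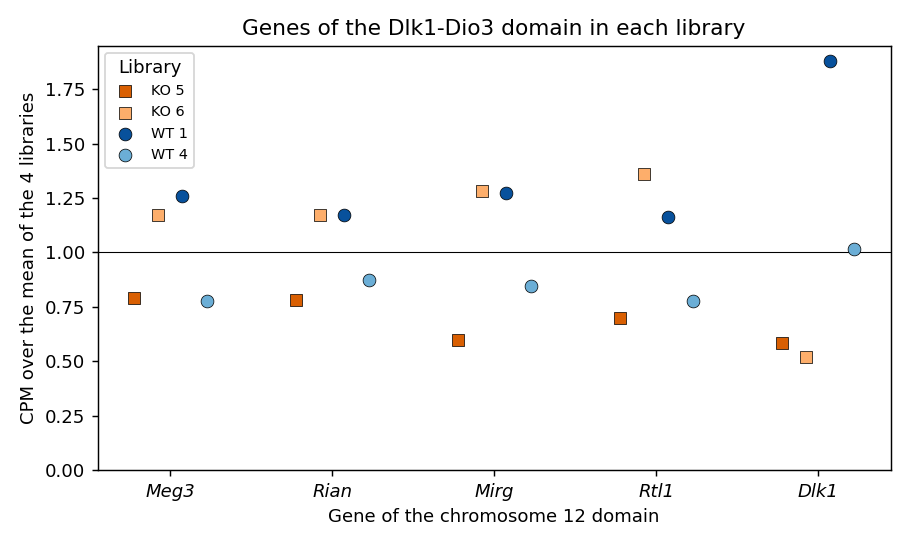
CPM of 5 genes of the Dlk1-Dio3 domain, each divided by its mean over the 4 libraries, with squares for KO and circles for WT. Meg3, Rian, Mirg and Rtl1 split by deposited table (KO 6 and WT 1 high), and Dlk1 splits by genotype.

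Cdkn1c, the gene of the cyclin-dependent kinase inhibitor p57, was at 33.5 CPM in KO 5 and 37.7 in KO 6, against 48.1 in WT 1 and 38.5 in WT 4. The KO libraries were both below, KO 6 by under 1 CPM, and the log2 fold change was -0.28 (SE 0.15), or -0.11 without WT 1. Its exon bases are shared in 30.65% with an opposite-strand gene. Igf2r, whose receptor clears IGF2 and which neurons express from both copies, was at 63.1 and 61.9 CPM in KO 5 and KO 6, against 75.8 and 56.2 CPM in WT 1 and WT 4. Its paternal antisense partner Airn had 1.88 and 1.23 CPM in KO 5 and KO 6, against 1.63 and 1.41 CPM in WT 1 and WT 4. Both overlapped between genotypes, with log2 fold changes of -0.08 and 0.04. Kcnq1ot1, the paternal noncoding RNA that silences the Cdkn1c cluster, was at 17.2 and 20.9 CPM in KO 5 and KO 6, against 20.35 and 20.95 CPM in WT 1 and WT 4, a log2 fold change of -0.12 (SE 0.16).

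Grb10 and Plagl1 were low in KO 6 and not in KO 5. Grb10, the gene of an adaptor that dampens insulin receptor signalling, was at 131 CPM in KO 5 and 88.8 in KO 6, against 134 in WT 1 and 118 in WT 4. Plagl1, a zinc-finger gene of the paternal class that regulates other imprinted genes, was at 139 CPM in KO 5 and 103 in KO 6, against 126 in WT 1 and 128 in WT 4. Mest, a paternally expressed hydrolase gene, followed the same order within KO, at 79.4 CPM in KO 5 and 57.5 in KO 6, against 94.8 in WT 1 and 76.7 in WT 4. Their log2 fold changes were -0.19, -0.07 and -0.32, with genotypes that overlapped for all 3. Without WT 1 they were -0.09, -0.08 and -0.16. Mest shares 23.1% of its exon bases with the opposite-strand gene Copg2, of the COPI vesicle coat, which was at 84.2 and 81.1 CPM in KO 5 and KO 6, against 74.5 and 85.2 CPM in WT 1 and WT 4.

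The Peg3 and Peg10 clusters showed small differences. Peg3, a paternally expressed zinc-finger gene, was at 80.5 CPM in KO 5 and 96.4 in KO 6, against 112 in WT 1 and 89.3 in WT 4. Usp29, which starts beside it in the other direction, was at 36.7 and 39.96 CPM in KO 5 and KO 6, against 39.1 and 41.7 CPM in WT 1 and WT 4. Zim1, the maternal zinc-finger gene of the cluster, had 8.55 and 9.42 CPM in KO 5 and KO 6, and 8.82 and 10.7 CPM in WT 1 and WT 4. All 3 overlapped between genotypes, with log2 fold changes of -0.19, -0.08 and -0.12, and of -0.01, -0.12 and -0.25 without WT 1.

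In the Peg10 cluster, WT 1 was the high library for most genes. Peg10, a retrotransposon-derived gene needed in placenta, was at 31.25 CPM in KO 5 and 27.5 in KO 6, against 40.1 in WT 1 and 28.9 in WT 4. Sgce, the gene of epsilon-sarcoglycan, was at 33.4 and 33.7 CPM in KO 5 and KO 6, against 41.1 and 32.3 CPM in WT 1 and WT 4. Asb4, an ankyrin-repeat gene of the maternal class, had 2.22 and 3.20 CPM in KO 5 and KO 6, against 4.61 and 2.17 CPM in WT 1 and WT 4. Ppp1r9a, the gene of the actin-binding protein neurabin, did not follow, at 112 and 119 CPM in KO 5 and KO 6 and 110.2 and 116.5 CPM in WT 1 and WT 4. The log2 fold changes were -0.23, -0.13, -0.32 and 0.03, and the genotypes overlapped in each. Without WT 1 they were 0.02, 0.05, 0.32 and -0.01. Peg10 and Sgce share a start region, and the counts of Peg10 per count of Sgce stayed between 0.815 and 0.975.

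The cluster of Snrpn, Ndn and Ube3a on chromosome 7 had log2 fold changes nearer 0 than that of its member Magel2. Ndn, next to Magel2, was at 251 CPM in KO 5 and 232 in KO 6, against 218 in WT 1 and 256 in WT 4. Its log2 fold change of 0.03 (SE 0.12) stands beside that of -1.09 for Magel2, and the counts of Ndn per count of Magel2 were 58.0 and 45.9 in KO 5 and KO 6, against 18.7 and 30.9 in WT 1 and WT 4. Mkrn3, a makorin ring-finger gene, had 15.9 and 15.2 CPM in KO 5 and KO 6, against 16.02 and 19.95 CPM in WT 1 and WT 4. Peg12, an intronless gene of the cluster, had 6.79 and 6.465 CPM in KO 5 and KO 6, against 7.76 and 7.335 CPM in WT 1 and WT 4. Neither overlapped between genotypes, by small margins, with log2 fold changes of -0.21 (SE 0.17) and -0.19 (SE 0.22).

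Snrpn, the gene of a splicing factor protein at the imprinting centre, was at 33.6 CPM in KO 5 and 44.2 in KO 6, against 44.6 in WT 1 and 33.3 in WT 4. Like Meg3 it was high in table A, and its log2 fold change was -0.003. Its exon bases are shared in 34.1% with other genes, among them Snurf and the readthrough model Gm38393, so its counts are uncertain. Ube3a, the ubiquitin ligase gene of Angelman syndrome that neurons express from the maternal copy, was at 62.4 and 77.3 CPM in KO 5 and KO 6, against 78.7 and 69.8 CPM in WT 1 and WT 4, with a log2 fold change of -0.09 (SE 0.135). Reads of its paternal antisense transcript may be among them, since 27.3% of its exon bases face other genes. Snhg14, that antisense transcript, had 80.75 and 108 CPM in KO 5 and KO 6, against 112 and 99.35 CPM in WT 1 and WT 4.

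Nnat, the most abundant of the set, was at 1658 CPM in KO 5 and 1594 in KO 6, against 2115 in WT 1 and 1409 in WT 4. The KO libraries lay between the WT libraries, and the log2 fold change of -0.12 (SE 0.19) was 0.21 without WT 1 and -0.37 without WT 4. Blcap, the host gene whose intron holds Nnat and which brain expresses mainly from the maternal copy, had 79.4 and 82.75 CPM in KO 5 and KO 6, against 86.6 and 90.1 CPM in WT 1 and WT 4. It did not overlap between genotypes, and its log2 fold change was -0.12 (SE 0.10).

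The host and retrocopy pairs had small log2 fold changes in the main fit, of opposite sign within each pair. H13, the gene of signal peptide peptidase, was at 145 and 128 CPM in KO 5 and KO 6, against 136 and 146.5 CPM in WT 1 and WT 4. Mcts2, the paternal retrocopy inside it, had 12.9 and 15.6 CPM in KO 5 and KO 6, against 14.2 and 12.8 CPM in WT 1 and WT 4. Their log2 fold changes were -0.05 and 0.08, and as a retrocopy Mcts2 can share reads with its parent gene. Commd1, of copper handling, had 2.85 and 4.99 CPM in KO 5 and KO 6, against 3.54 and 3.81 CPM in WT 1 and WT 4. Zrsr1, the paternal splicing-factor retrogene in its intron, had 10.1 and 10.3 CPM in KO 5 and KO 6, against 13.2 and 10.8 CPM in WT 1 and WT 4. Zrsr1 did not overlap between genotypes, at -0.23 (SE 0.20) or -0.08 without WT 1, and Commd1 did, at 0.09 (SE 0.35).

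Impact, a translation regulator gene of the paternal class on chromosome 18, was at 36.7 CPM in KO 5 and 43.8 in KO 6, against 48.1 in WT 1 and 41.7 in WT 4, a log2 fold change of -0.16 (SE 0.14), or -0.05 without WT 1. Gnas, the gene of the stimulatory G protein alpha subunit, had 11.2 and 12.75 CPM in KO 5 and KO 6, against 13.1 and 12.4 CPM in WT 1 and WT 4. Both overlapped between genotypes. Exon bases of Gnas are shared in 22.0% with opposite-strand genes, and how reads there were counted is not given. Nespas, the paternal antisense RNA of the Gnas locus, had 16 and 11 counts in KO 5 and KO 6, against 9 and 7 in WT 1 and WT 4. It was the only one of the 39 with both KO libraries above, at a log2 fold change of 0.79 (SE 0.49), and 38.5% of its exon bases are shared with Gnas and other genes.

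The remaining genes were near the limit of detection. Slc22a18 had 7 and 10 counts in KO 5 and KO 6 and 12 and 7 in WT 1 and WT 4, and Ddc, the decarboxylase gene of dopamine and serotonin synthesis, had 7 and 10 in KO 5 and KO 6 and 9 and 11 in WT 1 and WT 4. Ascl2, a placental transcription factor gene, had 1 and 4 counts in KO 5 and KO 6 and 2 and 8 in WT 1 and WT 4, and did not pass the filter. Dio3, the gene of a thyroid hormone inactivating enzyme at the far end of the Dlk1 domain, was in table A alone, with 1 count in KO 6 and 22 in WT 1. At equal depth that is a ratio of 0.0490 (exact 95% counting interval 0.00119 to 0.303), which compares 2 libraries and covers counting error only. Calcr, the calcitonin receptor gene, was in table B alone, with 1 count in KO 5 and 2 in WT 4. Expression of Phlda2 and Snurf was not analysed here.

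The authors' deposited table A marked 5 of its 41 imprinted genes as significant, all lower in KO 6 than in WT 1 (Igf2, H19, Dlk1, Magel2 and Dio3), beside 4.67% of all its genes. The authors' deposited table B marked 1 of 41, H19, beside 2.31% of its genes. Igf2, Magel2 and Dlk1 were unmarked in table B, though lower in KO, at deposited ratios of KO to WT of 0.544, 0.527 and 0.577. The ratio of H19 there was 0.489. The deposited adjusted p of these unmarked genes was also under 0.05, so the mark rests on more than the adjusted p. The marked imprinted genes had deposited log2 ratios of -1.03 (H19 in table B) or lower. Of the unmarked ones with an adjusted p under 0.05, the lowest was Magel2 in table B, at -0.92. The marks compare 1 library with 1 library.

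Of the genes that bear on imprinting or on IGF signalling, none named here passed the main edgeR test, and Tdg passed in other fits. Of 44 other imprinted genes listed, 33 were tested and 0 passed, 17 above and 16 below 0, with a median log2 fold change of 0.005. The 4 of smallest p were Rasgrf1 at 0.47, Slc38a4 at -1.435, Pon2 at -0.48 and Htr2a at 1.11. Slc38a4, the gene of an amino acid transporter, had 0.969 and 1.05 CPM in KO 5 and KO 6, against 3.82 and 1.64 CPM in WT 1 and WT 4, and was called without WT 4 alone of the alternatives (adjusted p 0.0202). Of 24 genes of imprint upkeep and DNA methylation, 21 were tested and 0 passed, with a median of -0.01. Tdg, the gene of a DNA glycosylase that acts in demethylation, had the smallest p among them, with 165 and 146 CPM in KO 5 and KO 6, against 84.98 and 93.95 CPM in WT 1 and WT 4. Both KO libraries were above both WT libraries, at 0.79 on the log2 scale (SE 0.12), with an adjusted p of 0.890 in edgeR. It was called by DESeq2 (adjusted p 6.9e-05), by edgeR with the table as a block (0.00819) and by edgeR without WT 4 (0.00448), and over the alternative fits the adjusted p ran up to 1. Of 18 genes of IGF ligands, receptors and binding proteins, 14 were tested and 0 passed, with 5 above and 9 below 0 and a median of -0.04. Igfbp4, the gene of an IGF-binding protein, was at 78.5 and 64.2 CPM in KO 5 and KO 6, against 107 and 72.1 CPM in WT 1 and WT 4, at -0.33 (SE 0.20). Igf1 was at -0.50 (SE 0.39). The relatives of Cdkn1c lay near 0, Cdkn1b at -0.04 and Cdkn1a at 0.06, as were those of Ndn and Magel2, with Maged2 at -0.02 and a median of -0.02 over 6 genes.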

How the data were processed

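RNA of dissected cerebral cortex at E16 was made into libraries with an Illumina TruSeq kit, per the labels' protocols. Named in the submitters' processing notes, with no roles, are HTSeq 0.6.0, TopHat2 2.0.12, Bowtie2 2.2.3 and the mouse build mm9. Each of the 2 deposited tables holds whole counts per Ensembl gene and the authors' CPM values. It also holds the authors' fold change (a ratio of KO to WT), its log2 value, and p-values with adjusted p-values, all of 1 library against 1 library, per the file headers. Gene positions are those of GRCm38, not mm9. They are printed as deposited, counted from 1, and 92.2% of the 23279 genes also in GENCODE mouse release M21 have its start and end. Exon lengths and overlaps are from that release.

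Genes in both tables (20385) went into edgeR 4.0.16 (R 4.3.3): filterByExpr, TMM factors (0.994 to 1.012), and the quasi-likelihood test of KO over WT, two-sided, with Benjamini-Hochberg adjustment over 16371 genes and a threshold of 0.05. SE is the log2 fold change divided by the root of F. Log2 ratios between single libraries use a prior count of 2. Alternatives used DESeq2 1.42.0 and limma 3.58.1. Figures were drawn with matplotlib 3.10.9. The test was tried on simulated counts with the same spread setting for every gene and library. That trial does not show how the test performs with libraries as unlike as WT 1 and WT 4. Replicate numbers are not shared between genotypes, and the deposited table was tried as a block. The genes and lists were chosen with earlier results of these data known. All imprinted genes averaging at least 1 CPM are described by library, and from each other list at most 4 genes of smallest p. Igf2os and Snhg14 were added as overlapping genes. Depth limits genes of few counts, and intervals cover counting error only.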

Additional observations from a re-analysis of the deposited data

How the results depend on the processing

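The KO and WT libraries share no replicate number, but each deposited table holds 1 library of each genotype. The fit with the table as a block takes these libraries as pairs, though what a table shares beyond the file is not given. That fit changed the call of H19 and Igf2. All genes called between KO and WT numbered 2, against 8 by DESeq2, 29 with the table as a block and 5 to 312 when 1 library was left out. Imprinted genes called numbered 0, against 2 with the block (H19 and Igf2) and 0 to 4 with 1 library left out, where 4 was without WT 4. The median log2 fold change of the maternal class ran from -0.355 to 0.0232 with 1 library left out. Of the values of 39 single imprinted genes under 9 alternatives, 305 kept direction and side of the threshold, 6 were newly past it and 40, of 25 genes, changed sign, none of them past it. Outside the fits that leave out a library only Snrpn did, at 0.000188 with size factors of the DESeq2 type, 0.0011 with no filter and 0.000356 in DESeq2, against -0.003. With 1 library left out the log2 fold changes ran as follows, and the cause was not tested. For 9 genes the ranges were Airn -0.3005 to 0.3116, Asb4 -0.7608 to 0.3184, Commd1 -0.362 to 0.4401, Copg2 -0.04278 to 0.1551, Ddc -0.515 to 0.09845, Gnas -0.1842 to 0.001955, Grb10 -0.5039 to 0.06469, H13 -0.1444 to 0.04334, Igf2r -0.2712 to 0.1546. For 9 more they were Kcnq1ot1 -0.2621 to 0.01691, Mcts2 -0.0602 to 0.2099, Meg3 -0.3552 to 0.339, Mirg -0.8149 to 0.2782, Ndn -0.08094 to 0.1563, Nnat -0.3732 to 0.2083, Peg10 -0.4428 to 0.02233, Plagl1 -0.3037 to 0.1338, Ppp1r9a -0.01456 to 0.07683. For the other 7 they were Rian -0.3808 to 0.1983, Rtl1 -0.4721 to 0.4849, Sgce -0.2867 to 0.05412, Slc22a18 -0.4342 to 0.2941, Snrpn -0.2091 to 0.2257, Ube3a -0.2461 to 0.05806, Zim1 -0.2483 to 0.03146. With 2 libraries a genotype, a lone library is assumed to vary like the other genotype. Depth limits Nespas, Slc22a18, Ddc, Ascl2, Dio3 and Calcr.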
